A study of Mus musculus with 12 samples.

Results

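The widest binding sites of Nfib outside chromosome 4 were examined in KP1, a mouse small cell lung cancer line. Nfib binding had been measured by chromatin immunoprecipitation with an antibody to Nfib followed by sequencing (ChIP-seq). A peak is an interval in which the authors' peak caller found more pulldown reads than background, and a wide peak was one of 500 bases or more. On chromosomes 1 to 19 without chromosome 4, 1441 of the 24905 KP1 peaks were wide, which was 5.79% of the list. Of these, 27 lay in segments at the start of chromosome 9 and on chromosome 17 that were treated as likely repeat artefacts and are described separately. The other 1414 were split into 543 that overlapped a peak of the line KP22 by at least 1 base and 871 that did not. The peaks were thus chosen by their width in KP1 and divided by overlap with KP22, so both are given as descriptions, without a test.

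The study used 3 tumour-derived lines grown as floating spheres, 16T, KP1 and KP22, each with the genotype Trp53-/-;Rb1-/-, so all of them lack both tumour suppressors. By its label KP22 expresses little Nfib (Nfib low), whereas 16T and KP1 are labelled Nfib high. Each line had 2 input and 2 Nfib pulldown libraries, 12 in all, and 1 peak list was used for KP1 and 1 for KP22 (16T peaks were not analysed here). KP22 is the only low line, so the level of Nfib and the line cannot be told apart. A list has no replicate, and the depth of its libraries is unknown, so numbers, widths and overlaps of peaks have no replicate check. Intervals in parentheses after a percentage or a median are exact 95% binomial intervals. They cover counting error alone, with peaks taken as independent.

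Nuclear factor I proteins are transcription factors that bind DNA as dimers, typically at a palindrome made of TTGGC, a short spacer and the same letters on the opposite strand. NFIB, a member of this family, takes part in lung and brain development, and its gene is recurrently gained in small cell lung cancer. The span of a called peak is the stretch over which the read pileup stays above the caller's threshold. It can grow with the strength of a site, with the number of adjacent sites and with the depth of the library. Genes and sequences at the peaks were not analysed here, because the gene and sequence tables at hand follow another genome build than the mm9 positions of the peaks.

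The wide KP1 peaks were the tail of 1 continuous distribution. Their median width was 595 bases (quartiles 541 and 685), against 223 bases (quartiles 174 and 297) for the 21015 narrower KP1 peaks of the same chromosomes. They made up 6.30% of the peaks there and 14.9% of the bases in peaks, or 902231 of 6066150 bases. Of the 1414, 682 had at least 600 bases, 228 at least 750, 40 at least 1000 and 10 at least 1200, and the widest had 1771. Widths ran through the threshold without a step. There were 127 peaks of 490 to under 500 bases and 98 of 500 to under 510, and of these 29.1% and 35.7% overlapped a KP22 peak.

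**Figure D1:**
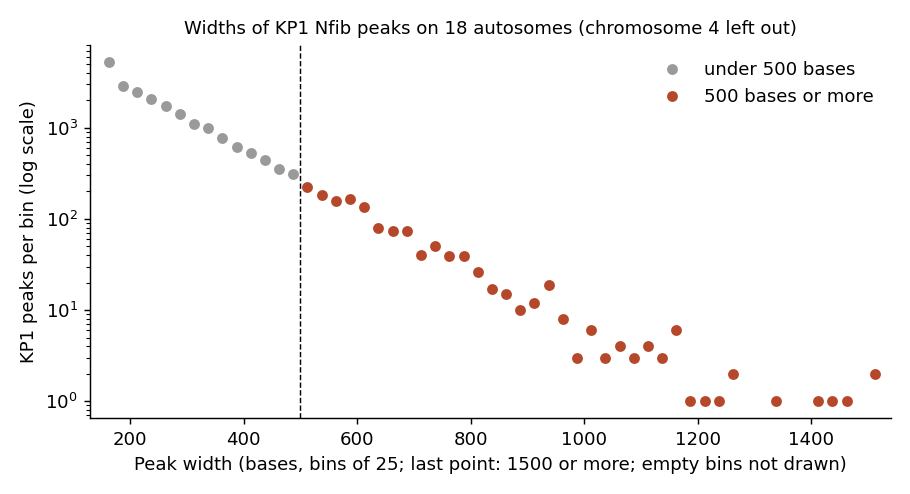
Number of KP1 peaks (log scale) by width in bins of 25 bases on the 18 autosomes other than chromosome 4, with the repeat segments left out; red points are peaks of 500 bases or more and the dashed line is the threshold. Counts fall through 500 bases without a step, and the last point holds the 2 peaks of 1514 and 1771 bases.

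All 18 chromosomes held wide KP1 peaks, in numbers that followed the number of KP1 peaks on each (Spearman's rho 0.95 over 18 chromosomes, a description within 1 list). The share of a chromosome's KP1 peaks that were wide ran from 4.41% (2.93 to 6.35) on chromosome 19 to 8.53% (7.09 to 10.2) on chromosome 8. Chromosome 8 was the only one whose interval left out the 6.30% found over all. With 18 intervals, 1 such miss can arise from counting error alone. The 114 wide peaks of chromosome 8 were not spread evenly. From 105 to 130 Mb, a segment chosen after its values were seen, 57 KP1 peaks were wide, which was 11.4% (8.77 to 14.5). On the remainder of chromosome 8, 57 were also wide, but this was 6.81% (5.20 to 8.73). KP22 peaks were also wide more often in that segment, at 14 of 207 or 6.76% (3.75 to 11.1), against 6 of 364 or 1.65% (0.607 to 3.55) on the remainder. In that segment 25 of the 57 wide KP1 peaks overlapped a KP22 peak, or 43.9% (30.7 to 57.6), beside 26.5% (22.4 to 30.8) of the narrower ones there. On the remainder 11 of 57 did, or 19.3% (10.0 to 31.9), beside 27.7% (24.6 to 31.0) of the narrower ones. The intervals of the wide peaks overlapped slightly, and the difference between the parts was not tested.

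In windows of 5 Mb, 364 windows held at least 1 wide KP1 peak, with a median of 3, and 15 windows held 10 or more. The most, 22, lay on chromosome 2 from 165 to 170 Mb, where 11 overlapped a KP22 peak (interval of the share 28.2% to 71.8%), beside 29.3% (22.9 to 36.5) of the narrower KP1 peaks. Chromosome 11 followed with 20 from 115 to 120 Mb, of which 13 overlapped a KP22 peak, or 65.0% (40.8 to 84.6), beside 33.7% (26.6 to 41.4) of the narrower ones. Chromosome 9 held 19 from 60 to 65 Mb, of which 4 overlapped, or 21.1% (6.05 to 45.6), beside 17.7% (11.2 to 26.0). Chromosome 8 held 17 from 125 to 130 Mb, of which 9 overlapped, or 52.9% (27.8 to 77.0), beside 27.3% (19.2 to 36.6). The window on chromosome 11 from 110 to 115 Mb held 14, of which 4 overlapped, or 28.6% (8.39 to 58.1), beside 15.9% (8.72 to 25.6). In the order given, 10.7% of 206, 10.6% of 189, 14.4% of 132, 13.4% of 127 and 14.6% of 96 KP1 peaks were wide. Over all 18 chromosomes the share was 6.30%. These windows were picked by their number of wide peaks, which favours high shares. In each of these windows the intervals of the wide and the narrower peaks overlapped, on chromosome 11 from 115 to 120 Mb only slightly. Differences in sharing within a window were not tested.

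KP22 had a peak at 38.4% (35.9 to 41.0) of the wide KP1 peaks, against 26.0% (25.4 to 26.6) of the narrower ones. Over all KP1 peaks on these chromosomes the share was 26.8%. The share was higher among wide than among narrower peaks on 17 of the 18 chromosomes. Chromosome 9 was the exception, with 26.1% (17.5 to 36.3) of 92 wide peaks and 27.3% (24.8 to 29.8) of the narrower ones. The highest shares were 48.1% (28.7 to 68.1) of 27 on chromosome 19, 47.7% (38.8 to 56.7) of 128 on chromosome 2 and 47.6% (34.9 to 60.6) of 63 on chromosome 15. On chromosomes 2 and 9 the interval left out the 38.4% found over all, and on the other 16 it did not. Among 18 such intervals a miss can arise from counting error alone.

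**Figure D2:**
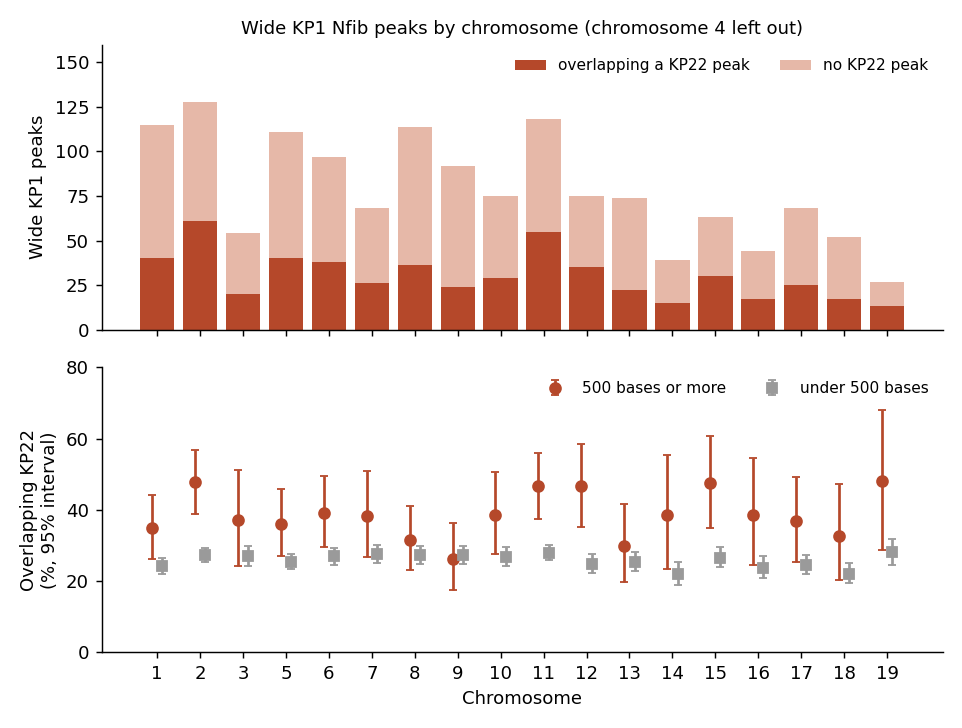
Upper panel: number of wide KP1 peaks per chromosome, divided into those that overlap a KP22 peak (dark) and those that do not (light). Lower panel: percentage of wide (red circles) and narrower (grey squares) KP1 peaks that overlap a KP22 peak, with exact 95% intervals; the red point lies above the grey one on every chromosome except 9.

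The share with a KP22 peak rose with width in 2 stretches, and the upper one depended on how the overlap was measured. It was 18.8% (17.9 to 19.6) for KP1 peaks of 150 to 199 bases and 28.4% (27.1 to 29.8) for those of 200 to 249. It then stayed level, at 31.9% (30.3 to 33.6) for 250 to 299 bases, 31.8% for 300 to 399 and 32.2% for 400 to under 500. Among the wide peaks it was 36.1% (32.6 to 39.7) at 500 to 599 bases, 39.7% (35.5 to 44.0) at 600 to 799, 42.7% (33.3 to 52.5) at 800 to 999 and 52.5% (36.1 to 68.5) at 1000 or more.

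A wide interval can be touched by a KP22 peak in more places than a narrow one. The overlap was therefore also measured over the central 150 bases of each KP1 peak, the width of the narrowest peak, an alternative chosen after the data were seen. On that measure the share among wide peaks was 34.0% (30.6 to 37.6) at 500 to 599 bases, 35.0% (30.9 to 39.2) at 600 to 799, 30.9% (22.4 to 40.4) at 800 to 999 and 32.5% (18.6 to 49.1) at 1000 or more. Over all wide peaks it was 34.1% (31.6 to 36.6), close to the 31.8% (30.8 to 32.8) of peaks of 250 to under 500 bases, and the intervals overlapped. It remained above the 26.0% (25.4 to 26.6) of all narrower peaks on the same measure, on 17 of 18 chromosomes, chromosome 9 again the exception. The lower stretch was the same on both measures, with 18.8% of the peaks of 150 to 199 bases. The rise above 500 bases was thus not seen at the centres of the peaks, whereas the lower share of the narrowest peaks was. The central 150 bases are a smaller part of a wider peak, so they miss more of the KP22 peaks away from its midpoint. Of 21 shared peaks of 1000 bases or more, 13 had a KP22 peak at the centre, against 1536 of 1537 at 150 to 199 bases. Why the share over whole peaks rose was not tested.

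**Figure D3:**
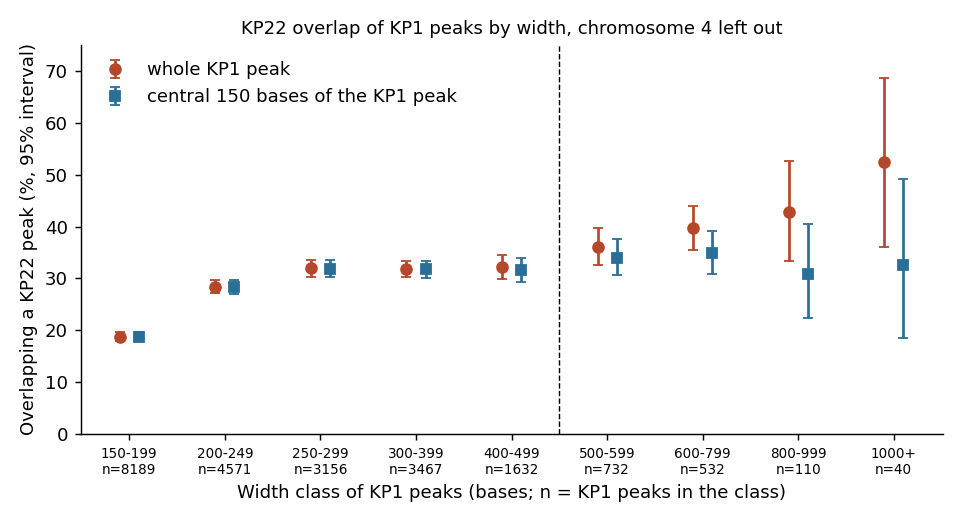
Percentage of KP1 peaks that overlap a KP22 peak, by width class, with exact 95% intervals: over the whole KP1 peak (red circles) and over its central 150 bases only (blue squares). To the right of the dashed line at 500 bases the red points climb from 36.1% to 52.5%, while the blue points stay between 30.9% and 35.0%.

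At the 543 shared sites the peak was usually much narrower in KP22. These sites were chosen by their width in KP1, which favours a narrower peak in the other list, and its part was not tested. Over all 9023 KP22 peaks on these chromosomes, wide ones included, the median width was 227 bases. For the 21015 KP1 peaks under 500 bases it was 223, but that set leaves out the wide ones, so the medians are not of like sets. Wide peaks were 6.30% (5.99 to 6.63) of the KP1 peaks and 2.96% (2.62 to 3.33) of the KP22 peaks there. The widest KP22 peak at a site had a median of 49.2% of the KP1 width (quartiles 35.6% and 67.8%). It was wide itself at 84 sites, which was 15.5%, and under 200 bases at 91 sites, which was 16.8% (13.7 to 20.2). At 34 sites it was wider than the KP1 peak. A single KP22 peak was found at 511 sites and a pair at 32. The 574 distinct KP22 peaks at these sites had a median width of 299 bases (284 to 313). Of the 574, 83 or 14.5% (11.7 to 17.6) were wide, against 2.96% (2.62 to 3.33) of all 9023 KP22 peaks. KP22 peaks that met only narrower KP1 peaks had a median of 245 bases (243 to 248, 5437 peaks), and those that met no KP1 peak had 195 (193 to 197, 3012 peaks). KP22 peaks were thus widest where KP1 peaks were wide, and narrowest where KP1 had none. Overlap itself favours wide intervals in both lists, and its part in this order was not tested.

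Among the shared wide peaks, the width in KP1 did not go with the width in KP22: Spearman's rho was -0.0035 over 543 sites. Among the 5471 narrower shared KP1 peaks rho was 0.26. The points of each set come from the same pair of lists, and the first set spans a small range of KP1 widths. By class of KP1 width, the median of the widest KP22 peak rose from 219 bases at 150 to 199 bases to 297 at 400 to under 500. It was then 314, 296, 313 and 313 bases in the classes from 500 to 599, 600 to 799, 800 to 999 and 1000 or more.

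**Figure D4:**
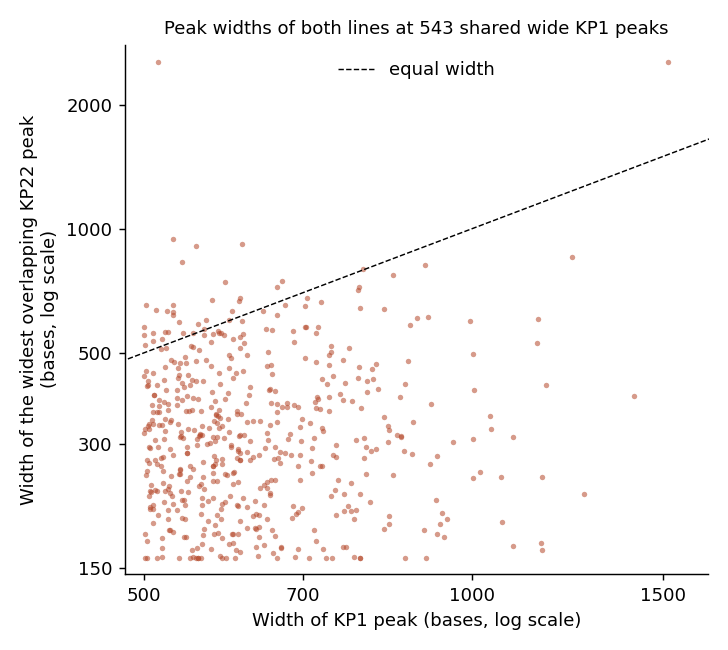
Width of the widest overlapping KP22 peak against the width of the KP1 peak (both in bases, log scales) at the 543 shared wide KP1 peaks, with a dashed line at equal width. Most points lie under the line, 34 lie above it, and the cloud has no slope; the pair of points at the top is the same KP22 peak of 2543 bases on chromosome 13.

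In the other direction, KP22 had 267 wide peaks on these chromosomes. Of these, 83 or 31.1% (25.6 to 37.0) met a wide KP1 peak, 176 or 65.9% (59.9 to 71.6) met only narrower KP1 peaks, and 8 met none. Of the narrower KP22 peaks, 65.7% (64.7 to 66.7) met any KP1 peak. Of the narrower KP22 peaks that met any KP1 peak, 8.54% (7.83 to 9.29) met a wide one, against 32.0% (26.4 to 38.1) of the wide ones. At wide KP22 peaks the widest KP1 peak had a median of 396 bases (quartiles 282 and 540), against 254 bases (quartiles 197 and 344) at narrower ones. Wide sites of the low line were thus nearly all KP1 sites too. At most of them, chosen here by KP22 width, the KP1 peak was under 500 bases.

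Most KP22 peaks at shared sites lay within the span of the wide KP1 peak. Of 575 overlapping pairs, 432 or 75.1% (71.4 to 78.6) had the KP22 peak wholly inside the KP1 peak, and 12 had the KP1 peak wholly inside the KP22 peak. The midpoints of the 2 peaks were a median of 94.5 bases apart (quartiles 42.3 and 157). The KP22 midpoint fell in the middle part of the KP1 peak, within 0.167 of its width from the centre, in 315 pairs, which was 54.8% (50.6 to 58.9), and outside the KP1 peak in 7. The midpoint of a contained peak is confined toward the middle by its own width, so these values do not show that KP22 peaks were centred.

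**Figure D5:**
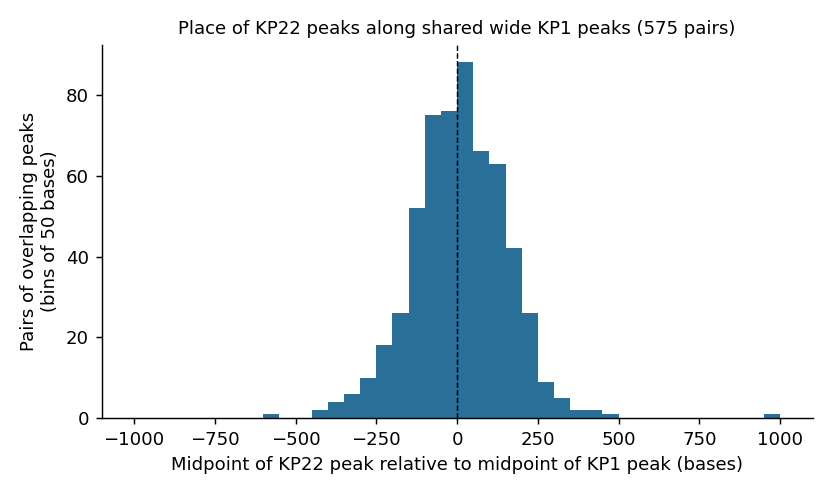
Distance in bases from the midpoint of the wide KP1 peak to the midpoint of the overlapping KP22 peak, in bins of 50 bases, for 575 pairs. The median distance was 94.5 bases, and overlap and containment bound how far the midpoints can lie apart.

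The widest shared site lay on chromosome 13 (mm9, 71158065 to 71159578, 1514 bases). KP22 had there its widest peak on these chromosomes, from 71157136 to 71159678 (2543 bases). Under this 1 KP22 peak KP1 had 3 peaks, of 515, 193 and 1514 bases, so that 2 of the 1414 wide peaks share it. It was also the site with the largest excess of KP22 width, followed by a wide KP1 peak on chromosome 5 (142813417 to 142813948, 532 bases) with a KP22 peak of 944 bases.

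At the other widest shared sites, chosen by KP1 width, the KP22 peaks were narrower. On chromosome 11 a KP1 peak of 1410 bases (120122794 to 120124203) met a pair of KP22 peaks, 1 of 350 bases wholly inside it and 1 of 393 bases that shared 315 bases with it and began before it. On chromosome 17 a KP1 peak of 1269 bases (6468960 to 6470228) held a KP22 peak of 227 bases. On chromosome 8 a KP1 peak of 1235 bases (122940142 to 122941376) held a KP22 peak of 855 bases, the closest in width among these. The remaining 6 of the 10 widest ran from 1148 to 1171 bases in KP1. Their widest-overlapping KP22 peaks had 418 bases on chromosome 6 (56322929 to 56324099), 250 on chromosome 10 (60998855 to 61000015), 166 on chromosome 11 (79042598 to 79043758), 173 and 605 on chromosome 5 (112682845 to 112684002 and 139574911 to 139576060) and 529 on chromosome 2 (98506362 to 98507509). In all 9 the KP1 peak was the wider, by 380 bases or more. Repeats at these sites were not checked.

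The 871 wide peaks called in KP1 alone had a median width of 592 bases (quartiles 539 and 679), against 604 (quartiles 545 and 711) for the shared ones. Few had a KP22 peak close by that missed the overlap: 14 had one within 500 bases, 32 or 3.67% (2.53 to 5.15) within 1000 and 159 or 18.3% (15.7 to 21.0) within 10000. Narrower peaks called in KP1 alone had similar shares, 4.30% (3.99 to 4.63) within 1000 bases and 17.4% within 10000. The median distance to the nearest KP22 peak was 50238 bases for the wide and 53977 for the narrower ones.

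The widest peak called in KP1 alone lay on chromosome 8 (19925340 to 19927110, 1771 bases), with the nearest KP22 peak 93190 bases away. Next came chromosome 1 from 62906261 to 62907721 (1461 bases) and chromosome 2 from 157576492 to 157577934 (1443 bases), with KP22 peaks 63118 and 22363 bases away. A peak of 1349 bases on chromosome 1 (156803049 to 156804397) lay 247050 bases from KP22, the farthest of the 10. Peaks of 1251 bases on chromosome 3 (67875300 to 67876550) and 1201 bases on chromosome 10 (39379211 to 39380411) lay 173508 and 34199 bases away. The last 4 were 1186 and 1126 bases on chromosome 1 (37569028 to 37570213 and 186499363 to 186500488), 1167 on chromosome 8 (11635646 to 11636812) and 1130 on chromosome 11 (98812336 to 98813465). Of the 10, the last was nearest to KP22, at 7836 bases. Repeats elsewhere than in the segments set apart were not checked.

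Wide KP1 peaks had closer neighbours than narrower ones. The gap to the nearest other KP1 peak had a median of 7274 bases (6026 to 8551), against 13557 (13062 to 14021) for narrower peaks. Another KP1 peak lay within 10000 bases of 55.8% (53.2 to 58.4) of the wide peaks and 44.1% (43.4 to 44.8) of the narrower ones. No other KP1 peak lay within 50000 bases of 12.6% (10.9 to 14.4) of the wide and 21.9% (21.3 to 22.5) of the narrower peaks. At very short range the shares were alike: 7.64% (6.31 to 9.15) of the wide and 6.57% (6.24 to 6.91) of the narrower peaks had a neighbour within 200 bases. Shared and KP1-only wide peaks had similar gaps, with medians of 7601 (5930 to 9696) and 7002 (5498 to 8752).

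Crowding and overlap with KP22 did not rise together. With no other KP1 peak within 50000 bases, 40.4% (33.2 to 48.0) of 178 wide peaks overlapped a KP22 peak. With 1 to 2 others it was 38.8% (34.7 to 43.0), with 3 to 5 it was 37.0% (32.5 to 41.6), and with 6 or more it was 38.6% (32.2 to 45.2). The narrower peaks ran from 28.5% (27.2 to 29.9) with none to 24.2% (22.3 to 26.1) with 6 or more. The intervals of the wide peaks overlapped one another at all 4 levels and lay above those of the narrower peaks. Over the central 150 bases, this held except with 6 or more others, where the shares were 30.7% (24.8 to 37.1) and 23.9% (22.0 to 25.9).

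When wide KP1 peaks less than 50000 bases apart were joined, 1068 stood alone, and 346 or 24.5% fell in runs of 2 or more. Narrower peaks were not joined in this way, so the share has no comparison and does not show that wide peaks cluster. There were 132 runs of 2, 19 of 3, 5 of 4 and 1 of 5. The run of 5 lay on chromosome 8 from 13481594 to 13539220, with widths of 526 to 943 bases, 2 of them shared. Runs of 4 ranged from fully shared to largely KP1 alone. On chromosome 11 from 117339887 to 117397418 all 4 wide peaks overlapped a KP22 peak, and 7 KP22 peaks stood beside 7 KP1 peaks. On chromosome 11 from 87932373 to 87972847, 1 of 4 did, and 1 KP22 peak stood beside 10 KP1 peaks. On chromosome 5 from 125620481 to 125683849, 1 of 4 did, with 5 KP22 and 14 KP1 peaks. The other runs of 4 lay on chromosome 2 from 118335962 to 118371476, with 3 shared, and on chromosome 12 from 88141962 to 88166397, with 2 shared.

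The 27 wide peaks in the segments treated as likely repeat artefacts stood apart from the others in width, and on chromosome 9 also in crowding. On chromosome 9, 26 wide peaks stood side by side from 3000036 to 3038281 and covered 73.1% of these 38246 bases. Their widths ran from 525 to 2118 bases with a median of 926.5, against 595 for the 1414. Of the 26, 6 overlapped a KP22 peak, beside 38.4% of the 1414 and 26.8% of all KP1 peaks outside the segments on these chromosomes. The difference was not tested. The KP22 peaks in the segment ran from 165 to 334 bases, beside quartiles of 183 and 293 over all KP22 peaks outside the segments. On chromosome 17, 1 KP1 peak of 5805 bases (39979954 to 39985758) was the widest of all 24905 and held 5 KP22 peaks of 205 to 1101 bases, 3288 bases in all.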

How the data were processed

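Nfib ChIP-seq peak lists of the lines KP1 and KP22 were analysed, 1 deposited list per line. Per the submitters' processing notes, Bowtie2, MACS2, DESeq2 and DESeq and the build mm9 were used, without versions or roles. Not given in the sources used here are the peak threshold, the duplicate handling and any pooling of libraries. The deposited lists hold positions, with a blank score column and an unvarying strand. The authors' merged-region table carries no positions and was not used.

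Positions are printed counting from 1. Lists were compared with scipy 1.17.1, numpy 2.4.6 and pandas 2.3.3 under Python 3.11.15, and matplotlib 3.10.9 drew the plots. The interval code was tested on simulated intervals. Peaks on chromosome 9 starting below 3.1 Mb and on chromosome 17 between 39.9 and 40 Mb were set apart. Distances are bases between interval ends, and crowding was counted between midpoints. Regions named are the 10 widest shared and 10 widest KP1-only peaks, the 3 with the largest KP22 excess, the 5 largest runs (6 with ties) and the repeat segments. Members and lists were chosen with earlier results of these data known.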

Additional observations from a re-analysis of the deposited data

How the results depend on the processing

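The percentage of wide KP1 peaks with a KP22 peak was 38.4%. It was 17.5% when the overlap had to cover 50% of both intervals, since most KP22 peaks at shared sites were narrower. It was 35.1% at a width threshold of 400 bases, 44.7% at 750 bases and 34.1% over the central 150 bases only. It stayed within its interval with 50% of the shorter interval, with KP22 peaks within 500 bases counted, with the repeat segments kept and with any 1 chromosome left out (37.5% without chromosome 2 to 39.3% without chromosome 9). At 750 bases the central share was 33.8% (27.7 to 40.3). The number of wide peaks, 1414, was 3046 at 400 bases and 228 at 750, by construction. The median width of KP22 peaks at shared sites, 299 bases, was 426 with 50% of both intervals, which selects wide KP22 peaks, and 281 at a threshold of 750 bases. The median gap to the next KP1 peak, 7274 bases, was 5474.5 at 750 bases, and the cause was not tested. The central window and the removal of chromosomes were chosen after seeing the data.

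No paired analysis was possible because the lists hold no value per library. Leaving out replicates was not run for the same reason. Motif and gene-start shares were not run, since the gene and sequence tables follow another build.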
